A study of Ovis aries with 16 samples.

Results

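The 8 genes described here are used as surface or secreted markers of the stromal cells of fat, the fraction that holds adipocyte progenitors. They are PDGFRA, PDGFRB, CD34, DDR2, THY1, CD55, PI16 and DPP4, and they were chosen by name, with earlier results of these data known. All 8 were present among the 28524 genes of the deposited count table, and all 8 had enough counts to be tested in every comparison. RNA sequencing was done on 16 libraries of adipose tissue from female sheep (Ovis aries) about 21 months old, in 4 groups of 4. Mothers of the exposed groups had been injected subcutaneously with bisphenol A (BPA, a plastics chemical with oestrogen-like activity) in corn oil at 0.5 mg/kg/day on gestation days 30 to 90, of about 147. Mothers of the control groups received corn oil alone. Within each exposure, visceral fat was mesenteric fat next to the rumen and subcutaneous fat came from the sternal region. All ewes were kept on a maintenance diet, were synchronized with a pair of prostaglandin F2α injections and gave tissue 24 hours after the last. A number in each sample's title names the library. Of 11 such numbers, 5 occur in both depots, which are 902, 924 and 928 in controls and 918 and 977 in BPA ewes. The labels do not say that a number is an animal, so p-values measure the spread between these samples.

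Fat grows in part by the recruitment of new adipocytes from fibroblast-like progenitors in the connective tissue and along the vessels. In mouse and human subcutaneous fat these cells are often ordered from early progenitors, which carry DPP4, PI16 and CD55 and lie in the interstitium, to committed preadipocytes near adipocytes. PDGFRA marks most of these fibroblastic cells, PDGFRB marks them together with the mural cells of small vessels, and CD34 is shared by progenitors and endothelium. DDR2 is a receptor for fibrillar collagen, and THY1 (CD90) is a general mesenchymal surface protein. None of the 8 genes is restricted to progenitors, and whole tissue was sequenced, so fewer cells of a type and less RNA per cell cannot be told apart in any value below.

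The libraries held 11.0 to 13.1 M counts in visceral controls, 6.77 to 14.3 M in visceral BPA samples, 4.74 to 6.22 M in subcutaneous controls and 3.05 to 4.83 M in subcutaneous BPA samples. The tissue labels were checked against defining markers. The adipocyte hormone gene ADIPOQ averaged between 6860 and 12800 TPM (counts per length, scaled to a fixed sum in each library) in the 4 groups, and PLIN1, the coat protein of lipid droplets, between 3720 and 4040. The endothelial gene PECAM1 averaged 264 to 348 TPM, the leukocyte gene PTPRC 29.7 to 74.1 and the macrophage gene CD68 32.6 to 72.6. The mesothelial gene MSLN averaged 5.06 and 3.65 TPM in visceral control and BPA fat, and 0.15 and 0.291 in subcutaneous fat.

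The 8 genes are spread over 7 chromosomes in the deposited coordinates, whose genome build is not given in the sources used here. PDGFRA lies on chromosome 6 at 76887758 to 76936037 on the plus strand, with 24 merged exons. PDGFRB lies on chromosome 5 at 64179149 to 64202921 on the minus strand, with 25. CD34 and CD55 share chromosome 12, CD34 at 78972638 to 78995971 with 8 exons and CD55 at 4916683 to 4943931 with 12, both on the plus strand. DDR2 lies on chromosome 1 at 121382132 to 121552768 (plus, 22 exons) and DPP4 on chromosome 2 at 159654505 to 159735574 (plus, 26 exons). THY1 lies on chromosome 15 at 32773027 to 32779329 (minus, 4 exons) and PI16 on chromosome 20 at 12503113 to 12517149 (plus, 7 exons). The span of none of the 8 overlaps that of another gene of the table on either strand.

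Compared per length, CD34, PDGFRB and DDR2 had the highest mean levels of the 8, and PI16, CD55 and DPP4 the lowest. Over the 16 libraries CD34 had a mean of 231 TPM (range 119 to 373) and PDGFRB, a receptor for platelet-derived growth factor, 210 TPM (110 to 517). DDR2 followed with 153 TPM (82.2 to 271), THY1 with 69.3 (36.1 to 128) and PDGFRA with 43.4 (29.4 to 73.8). PI16, a peptidase inhibitor, averaged 28.1 TPM (8.11 to 105), CD55, an inhibitor of complement on the cell surface, 17.7 (6.44 to 39.9), and DPP4, a peptidase that trims peptide hormones and chemokines, 7.96 (2.68 to 14.2). These means placed CD34 at the 95.7th percentile of the genes tested in all 16 libraries and DPP4 at the 26.5th. CD34 exceeded PDGFRB in 13 of 16 libraries, PDGFRB exceeded DDR2 in 9 and PI16 exceeded CD55 in 11, so these neighbours were not separated beyond their spread. DDR2 exceeded THY1 in 16, THY1 exceeded PDGFRA in 15, PDGFRA exceeded PI16 in 14 and CD55 exceeded DPP4 in 15. DPP4 was the least precise member, since its lowest library, subcutaneous BPA 941, held 17 counts (exact Poisson 95% interval 9.9 to 27.2, counting error only). The lowest libraries of CD55 and PI16 held 38 and 54 counts, and those of the other 5 genes at least 141.

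**Figure D1:**
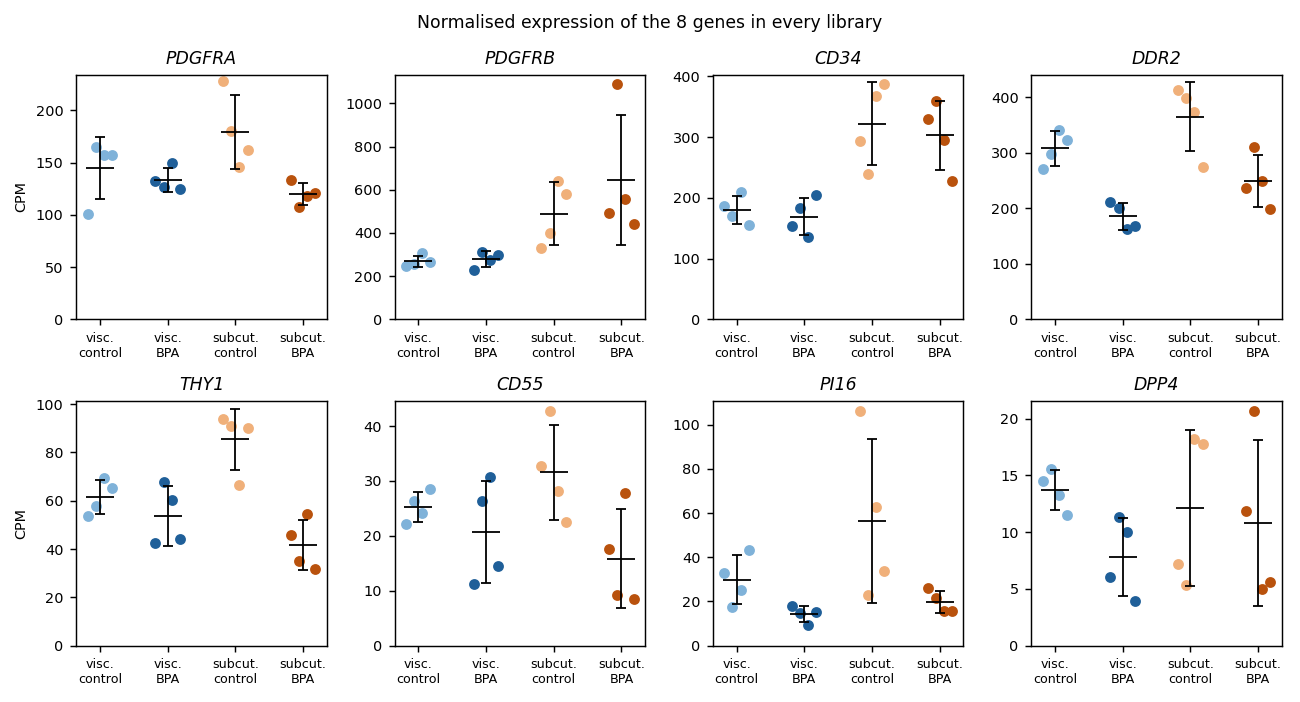
Levels of the 8 genes in each of the 16 libraries in CPM, a gene's counts as parts of the TMM-scaled library total, by depot and exposure, with 1 point a library and a bar at the group mean. THY1 in subcutaneous fat lies at 31.6 to 54.5 CPM in BPA libraries and 66.5 to 93.7 in controls, and PDGFRB and CD34 lie higher in subcutaneous than in visceral fat.

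Below, the level of a gene is its CPM after TMM scaling, and a group is summarised by its mean ± SD (n = 4). Fold changes are log2 values with their standard error (SE) from edgeR's quasi-likelihood test, and a gene is called at a Benjamini-Hochberg adjusted p under 0.05 over all genes tested. BPA was first compared with control in subcutaneous fat. THY1 was called lower, the only called member, and 7 of the 8 genes had lower estimates, against 50.8% of all genes. The median log2 change of the 8 was -0.561, and that of all genes -0.00574. As background, 96 of 13535 genes were called (0.709%), 82 of them higher (0.606%) and 14 lower (0.103%). That balance depended on the tool, with 261 higher and 203 lower in DESeq2.

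THY1, which on fibroblasts binds integrins, was 93.7, 91.0, 66.5 and 90.2 CPM in subcutaneous controls 902, 924, 928 and 931, and 45.7, 35.0, 54.5 and 31.6 in BPA libraries 918, 922, 941 and 977. Every BPA library lay below every control. The means were 41.7 ± 10.4 and 85.3 ± 12.7, a 2.04-fold lower level (log2 -1.03 ± 0.19, edgeR adjusted p = 0.0429). The direction held in all 17 alternatives, from -1.18 to -0.90, but the call held in 6 of them (adjusted p 0.000219 to 0.252). It was lost with a filter of 50 counts in 4 libraries, with genes under 200 bases left out and with limma voom, with or without the block (adjusted p 0.0528, 0.157, 0.0904 and 0.0902). It was also lost when any of controls 902, 924 or 931 or BPA libraries 918, 922 or 977 was left out (0.133, 0.0859, 0.0664, 0.0889, 0.129 and 0.0867). With controls 902 and 924 both left out, THY1 was at -0.90 (0.252).

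PDGFRA, the receptor that binds all classical PDGF dimers, was 228, 180, 146 and 162 CPM in subcutaneous controls 902, 924, 928 and 931. In BPA libraries 918, 922, 941 and 977 it was 133, 108, 118 and 121. The groups did not overlap here either, with means of 179 ± 35.5 and 120 ± 9.98, but the difference was not called (log2 -0.57 ± 0.15, edgeR adjusted p = 0.136, and 0.0277 with DESeq2). Groups without overlap and with lower BPA values were thus seen in 2 of the 8 members, against 3.16% of all genes. PDGFRB was 332, 402, 641 and 582 CPM in controls, in the same order, and 491, 1090, 559 and 443 in BPA libraries. Its estimate was the only one of the 8 above 0, at log2 0.41 ± 0.31 (edgeR adjusted p = 0.587), and was 0.03 without BPA library 922.

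PI16, CD55 and DPP4 mark early progenitors in mouse and human fat. PI16 was 106, 23.0, 62.8 and 33.6 CPM in subcutaneous controls 902, 924, 928 and 931, and 26.0, 21.7, 15.8 and 15.5 in BPA libraries 918, 922, 941 and 977. The BPA libraries were close together while the controls spread widely, and control 924 fell within the BPA range. PI16 had the lowest estimate of the 8 (log2 -1.51 ± 0.41, edgeR adjusted p = 0.14, 0.0121 with DESeq2, and -1.0 with an edgeR adjusted p of 0.364 without control 902). CD55 was 32.7, 42.8, 28.2 and 22.5 CPM in controls and 17.7, 9.25, 27.8 and 8.52 in BPA libraries (log2 -1.01 ± 0.36, edgeR adjusted p = 0.245). The BPA library 941 lay among the controls for CD55. DPP4 was 7.16, 5.33, 18.2 and 17.8 CPM in controls and 11.9, 20.7, 4.98 and 5.61 in BPA libraries, with fully overlapping groups (log2 -0.14 ± 0.50, edgeR adjusted p = 0.926).

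DDR2, which signals on contact with collagen, was 414, 399, 373 and 275 CPM in subcutaneous controls 902, 924, 928 and 931 and 236, 311, 249 and 199 in BPA libraries 918, 922, 941 and 977. A single BPA library, 922, lay above the lowest control (log2 -0.55 ± 0.18, edgeR adjusted p = 0.212). CD34, a sialomucin of progenitors and vessels, was 293, 239, 368 and 387 CPM in controls and 329, 359, 296 and 227 in BPA libraries. Its groups overlapped and its means were 321 ± 68.4 and 303 ± 56.4 (log2 -0.08 ± 0.19, edgeR adjusted p = 0.884). Unadjusted p-values under 0.05 were found for 14.2% of all genes in this comparison.

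**Figure D2:**
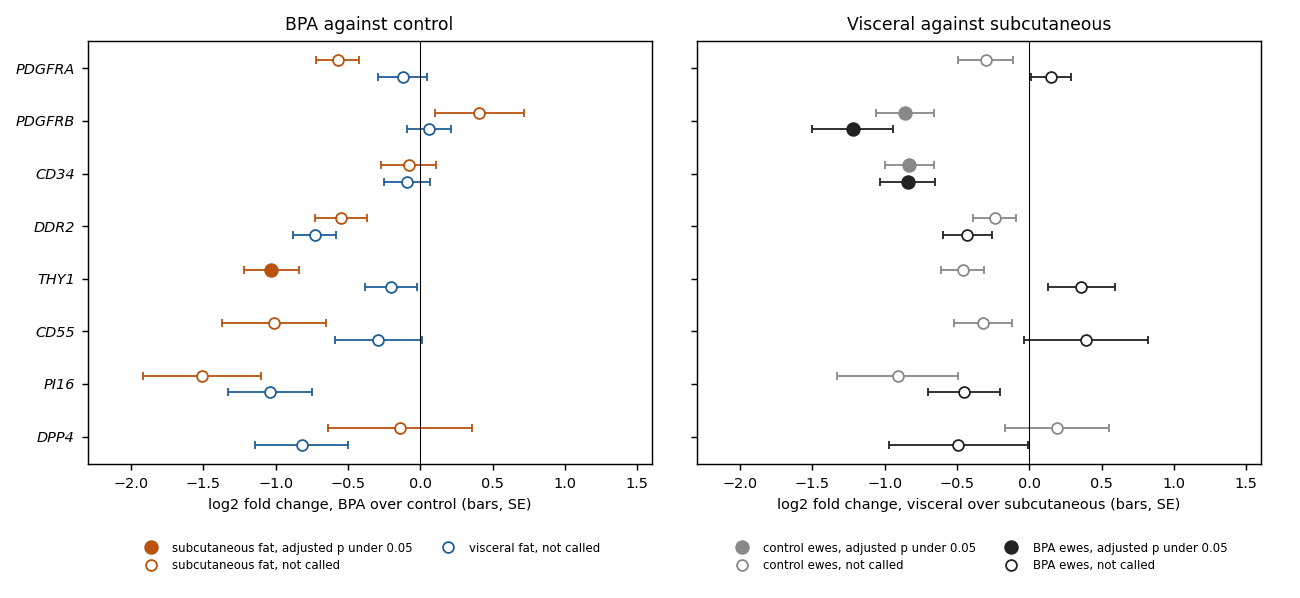
Log2 fold changes of the 8 genes with SE bars, BPA over control in each depot on the left and visceral over subcutaneous fat in each exposure on the right; filled points have an edgeR adjusted p under 0.05. THY1 in subcutaneous fat is the only filled point on the left (-1.03), and PDGFRB and CD34 are filled in both depot comparisons on the right.

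Further lists of stromal genes were counted in subcutaneous fat. Of 12 further genes of early progenitors in mouse or human fat, 11 could be tested and 10 had lower estimates in BPA ewes, with a median log2 of -0.737 and 0 called (smallest edgeR adjusted p = 0.0767). FBN1, the microfibril protein fibrillin, was 1090 ± 194 CPM against 1820 ± 290 (log2 -0.74 ± 0.19, edgeR adjusted p = 0.119). PCOLCE2, an enhancer of procollagen processing, was 46.6 ± 7.14 against 91.5 ± 32.3 (-0.97 ± 0.23, 0.0897), and SEMA3C, a secreted semaphorin, 58.6 ± 6.97 against 104 ± 30.9 (-0.82 ± 0.20, 0.102). These and BMP7 and EFHD1 made 5 of 11 genes whose BPA libraries all lay below the controls, against 3.16% of all genes. Of 18 general stromal genes 17 were tested, 14 had lower estimates (median -0.29) and 0 were called. COL1A1, a chain of fibrillar collagen I, was 822 ± 290 against 1770 ± 317 CPM (-1.10 ± 0.23, 0.0622). Genes of committed preadipocytes did not share this direction, with 6 of 9 tested above 0 and a median of 0.284.

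Of the 4 PDGF ligand genes, 3 had lower estimates in subcutaneous BPA fat, with a median log2 of -0.428 and 0 called. PDGFD, a ligand of PDGFRB, was 142 ± 38.6 against 199 ± 21.9 CPM (-0.49 ± 0.19, edgeR adjusted p = 0.295), and PDGFC, a ligand of PDGFRA, 17.0 ± 4.00 against 31.6 ± 7.73 (-0.89 ± 0.23, 0.129). The 5 tested genes of THY1-binding integrin chains and syndecan-4 all had estimates below 0 (median -0.327), as did the 4 tested partners of CD55, complement genes and its receptor ADGRE5 (median -0.431), with 0 called in either list. Tested DPP4 partners were above 0 in 3 of 4 (median 0.182) and those of DDR2 in 1 of 2 (-0.00375). The 1 tested CD34 partner was below 0 (-0.621), and 0 were called in these lists. Markers of other cell types also differed in level between these groups. All 9 tested macrophage genes had lower estimates (median -0.962), and TYROBP, a signalling adaptor of myeloid cells, was called lower (4.24 ± 1.53 against 14.2 ± 4.65 CPM, edgeR adjusted p = 0.0447). Summed macrophage markers, 10 of 12 genes, were 329 to 527 CPM in BPA libraries and 612 to 855 in controls. Summed lymphocyte markers were 47.8 to 111 and 93.1 to 254 CPM, while 13 of 14 adipocyte genes had estimates above 0 (median 0.338). Mural genes had 9 of 10 estimates above 0 (median 0.283). Endothelial genes had 10 of 12 estimates below 0 (median -0.253) and tested Schwann cell genes 4 of 4 (median -0.345), with 0 called in either list. Summed skeletal muscle markers reached 959 CPM in BPA library 977 and 330 in 922, against 34.9 to 77.4 in controls. The part of these markers, and of the shallower BPA libraries, in the values of the 8 genes was not tested.

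In visceral fat, none of the 14774 genes was called between BPA and control (0%), and none of the 8 members, while 7.47% of genes had an unadjusted p under 0.05. DDR2 was nevertheless the gene with the smallest p of all (0.000439 unadjusted). It was 270, 298, 342 and 324 CPM in visceral controls 902, 908, 924 and 928, and 212, 200, 163 and 168 in BPA libraries 910, 918, 977 and 984. The groups did not overlap, and the means were 185 ± 24.0 and 309 ± 31.3 (log2 -0.73 ± 0.15, edgeR adjusted p = 0.658, and 0.0304 with DESeq2). As in subcutaneous fat, 7 of the 8 had lower estimates, with PDGFRB the exception, against 49.7% of all genes, and the median was -0.244 (0.00188 for all genes). The depot comparisons of BPA with control use different libraries, but 5 of the title numbers are in both.

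DPP4 was the other visceral member without overlap, with 14.5, 15.6, 13.3 and 11.5 CPM in controls 902, 908, 924 and 928 and 6.02, 11.3, 10.0 and 3.92 in BPA libraries 910, 918, 977 and 984 (log2 -0.82 ± 0.32, edgeR adjusted p = 0.658). Lower BPA values without overlap were seen in these 2 of 8 members and in 1.95% of all genes. PI16 was 32.9, 17.5, 25.4 and 43.4 CPM in visceral controls and 18.1, 14.9, 9.58 and 15.3 in BPA libraries (-1.04 ± 0.29, 0.658). Its groups touched at control 908 and BPA library 910. CD55 was 22.2, 26.3, 24.1 and 28.5 CPM in controls and 11.2, 26.4, 30.7 and 14.6 in BPA libraries, where libraries 910 and 984 were low and 918 and 977 were not (-0.29 ± 0.30, 0.777).

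THY1 was 53.7, 57.9, 69.5 and 65.2 CPM in visceral controls 902, 908, 924 and 928 and 42.6, 67.9, 60.2 and 44.1 in BPA libraries 910, 918, 977 and 984 (log2 -0.20 ± 0.18, edgeR adjusted p = 0.76). The same BPA libraries, 910 and 984, were the low ones for THY1 and for CD55. PDGFRA was 101, 165, 157 and 157 CPM in controls and 132, 127, 150 and 125 in BPA libraries (-0.12 ± 0.17, 0.849). PDGFRB was 247, 256, 306 and 264 against 229, 312, 273 and 299 (0.06 ± 0.15, 0.91). CD34 was 186, 170, 209 and 156 against 153, 183, 136 and 205 (-0.09 ± 0.16, 0.876), so that the groups overlapped for these 3 genes.

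Among the further early progenitor genes in visceral fat, 8 of 11 had lower estimates (median -0.293, 0 called). MFAP5, a microfibril protein, had the second smallest p of all genes, at 31.5 ± 3.05 against 58.7 ± 12.6 CPM without overlap (log2 -0.90 ± 0.18, edgeR adjusted p = 0.658). Genes of committed preadipocytes were above 0 in 8 of 8 (median 0.258), and general stromal genes in 11 of 18 (median 0.136), again with 0 called. PDGF ligand genes were below 0 in 3 of 4 (median -0.296). Tested THY1 partners were above 0 in 4 of 5 (median 0.431), those of DPP4 in 3 of 4 (0.13) and those of CD55 in 2 of 5 (-0.141). The partners of DDR2 and of CD34 were above 0 in 1 of 2 each (0.342 and 0.177), and 0 were called in these lists. Summed macrophage markers overlapped between the visceral groups (551 to 1210 CPM in BPA libraries, 818 to 974 in controls). Summed mesothelial markers were 31.6 to 343 CPM in BPA libraries and 59.7 to 131 in controls, the highest in BPA library 977.

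Whether the BPA difference itself differed between depots was tested as an interaction over all 16 libraries. None of 14793 genes was called (0%), while 6.20% had an unadjusted p under 0.05. THY1 had the smallest p of the 8 (difference 0.84 ± 0.27 on the log2 scale, edgeR adjusted p = 0.666), from a BPA change of -1.03 in subcutaneous and -0.20 in visceral fat. DDR2 differed by -0.18 ± 0.23 (edgeR adjusted p = 0.999) and PI16 by 0.48 ± 0.54 (0.999). PDGFRA differed by 0.46 ± 0.23 (0.836), CD55 by 0.72 ± 0.50 (0.935), DPP4 by -0.67 ± 0.64 (0.992) and PDGFRB by -0.35 ± 0.36 (0.999), while the BPA folds of CD34 in both depots had a ratio of 0.997. Of the 8, 4 differences were below 0, against 48.1% of all genes.

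A BPA effect averaged over both depots was computed after the separate results had been seen. With limma voom and the title number as a block, 0 of 14793 genes were called (0%), and 12.5% had an unadjusted p under 0.05. DDR2 ranked 7th by p (log2 -0.62 ± 0.12, limma adjusted p = 0.133) and THY1 23rd (-0.66 ± 0.15, 0.165). PI16 had -1.09 ± 0.31 (0.179), CD55 -0.85 ± 0.26 (0.209), DPP4 -0.63 ± 0.34 (0.462) and PDGFRA -0.34 ± 0.13 (0.309). PDGFRB and CD34 were near 0, at 0.21 ± 0.19 (0.67) and -0.09 ± 0.14 (0.823). An edgeR fit of the 16 libraries without the block called 140 genes, DDR2 (-0.64, edgeR adjusted p = 0.02), PI16 (-1.28, 0.0373) and THY1 (-0.62, 0.0405) among them. Limma voom without the block called 0, so the calls differed with the tool. The fits without the block treated the 16 libraries as independent, although 5 title numbers occur in both depots, so their p-values may be too small.

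Depot was compared within each exposure, visceral against subcutaneous, with no pairing by title number. PDGFRB and CD34 were called lower in visceral fat in both control and BPA ewes, and no other member was called in either. In control ewes 1928 of 14456 genes were called (13.3%), 6.16% lower and 7.17% higher in visceral fat, and 29.5% had an unadjusted p under 0.05. In BPA ewes 1250 of 13782 were called (9.07%), 3.94% lower and 5.13% higher, and 27.0% had an unadjusted p under 0.05. These comparisons share their control or BPA libraries with those of exposure.

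PDGFRB, the receptor that mural cells use to respond to endothelial PDGF-B, was 1.82-fold lower in visceral than in subcutaneous controls (268 ± 26.3 against 490 ± 146 CPM; log2 -0.86 ± 0.20, edgeR adjusted p = 0.0201). In BPA ewes it was 2.33-fold lower (278 ± 36.8 against 647 ± 302; -1.22 ± 0.28, 0.0242). All visceral libraries, 229 to 312 CPM, lay below all subcutaneous ones, 332 to 1090. Of single omissions, the control call was lost without visceral control 902, 908 or 928 or subcutaneous control 928 (adjusted p 0.0576, 0.0533, 0.0583 and 0.0528), and the BPA call without visceral BPA 910 or subcutaneous BPA 941 (0.0571 and 0.0521).

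CD34 was 1.78-fold lower in visceral controls (180 ± 23.1 against 321 ± 68.4 CPM; log2 -0.83 ± 0.17, edgeR adjusted p = 0.0114) and 1.79-fold lower in visceral BPA fat (169 ± 30.9 against 303 ± 56.4; -0.84 ± 0.19, 0.0234). All visceral libraries, 136 to 209 CPM, lay below all subcutaneous ones, 227 to 387. The call in controls held in all 18 alternatives (adjusted p 0.000237 to 0.0422). In BPA ewes it was lost without visceral BPA 910 or subcutaneous BPA 918, 922 or 941 (0.0544, 0.0614, 0.0816 and 0.0596). Groups without overlap and lower in visceral fat were 2 of the 8 members in each exposure, against 9.71% of all genes in controls and 9.03% in BPA ewes.

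**Figure D3:**
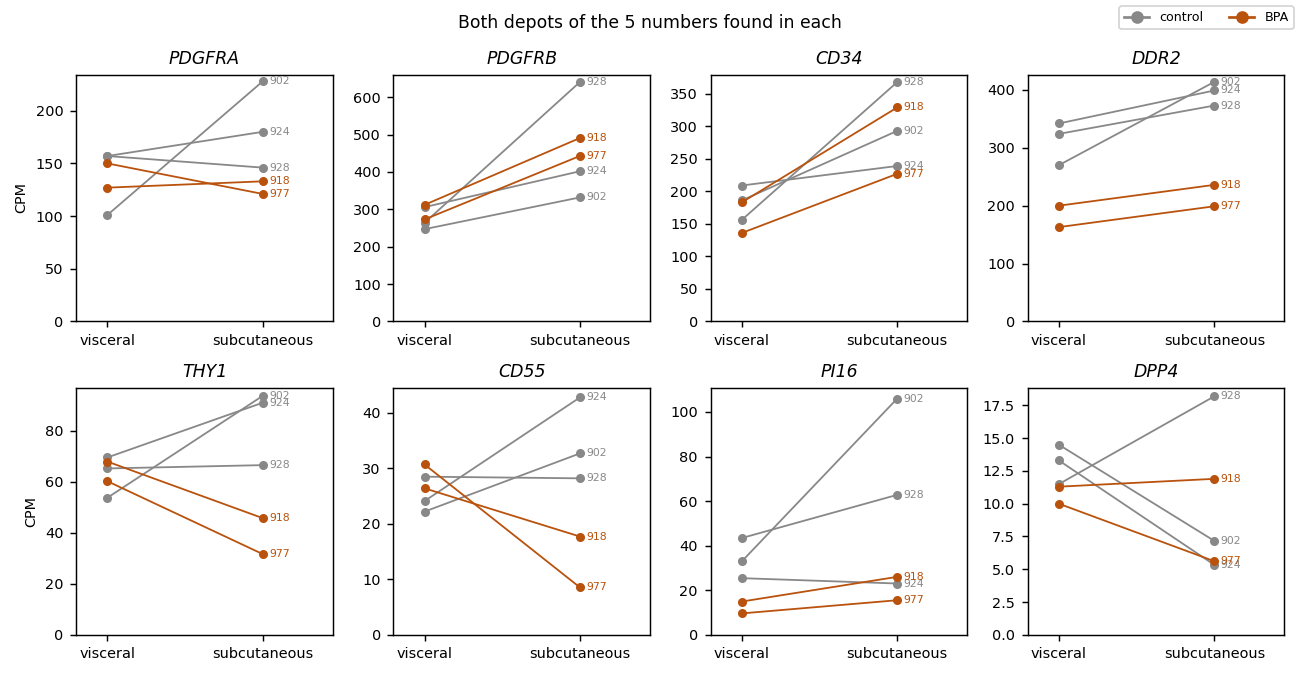
CPM of the 8 genes in visceral and subcutaneous libraries that carry the same title number, 3 control and 2 BPA numbers, each joined by a line; each axis starts at 0. PDGFRB, CD34 and DDR2 are higher in the subcutaneous library in 5 of 5 numbers, while THY1 slopes up in controls and down in BPA numbers.

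Libraries of a shared number are among those compared above. Since all visceral libraries lay below all subcutaneous ones for PDGFRB and CD34, the direction within numbers was fixed for both genes. The log2 ratio of visceral to subcutaneous PDGFRB was -0.43, -0.39 and -1.28 in controls 902, 924 and 928 and -0.65 and -0.70 in BPA numbers 918 and 977. For CD34 the ratios were -0.66, -0.19, -1.24, -0.84 and -0.74 in the same order, and for DDR2 -0.62, -0.22, -0.20, -0.24 and -0.29. All 5 numbers were thus lower in visceral fat for each of these genes. DDR2 was not called (log2 -0.24 ± 0.15, edgeR adjusted p = 0.331 in controls; -0.43 ± 0.17, 0.147 in BPA ewes).

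The other members differed less steadily between depots. THY1 was lower in the visceral library of controls 902, 924 and 928 (-0.80, -0.39 and -0.03 on the log2 scale) and higher in that of BPA numbers 918 and 977 (0.57 and 0.93). Over the groups its depot difference was -0.46 ± 0.15 in controls (edgeR adjusted p = 0.0574) and 0.36 ± 0.23 in BPA ewes (0.333). CD55 had the same split for 902 and 924 (-0.56 and -0.83) against 918 and 977 (0.58 and 1.85), with 928 at 0.01. Its group differences were -0.32 ± 0.20 (0.303) and 0.39 ± 0.43 (0.597). PI16 was lower in visceral fat in 4 of 5 numbers, and its estimates were -0.91 ± 0.42 in controls (0.174) and -0.45 ± 0.25 in BPA ewes (0.283). DPP4 had 0.19 ± 0.36 (0.762) and -0.49 ± 0.48 (0.555), and PDGFRA -0.30 ± 0.19 (0.31) and 0.15 ± 0.14 (0.524). The median over the 8 was -0.391 in controls and -0.437 in BPA ewes (all genes -0.00687 and 0.0237). Estimates were below 0 in 7 of 8 and 5 of 8, against 50.6% and 48.0% of all genes.

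Of 18 general stromal genes, 11 were called lower and 2 higher in visceral fat of controls (median log2 -0.905), against 6.16% and 7.17% of all genes. In BPA ewes 6 were called lower and 2 higher, against 3.94% and 5.13%, and 11 of the 18 estimates were below 0 (median -0.247). NT5E (CD73), a mesenchymal ectonucleotidase, was 2.08 ± 0.502 CPM in visceral and 14.0 ± 4.49 in subcutaneous controls (log2 -2.73 ± 0.31, edgeR adjusted p = 0.000636). COL1A2, the other chain of collagen I, had -1.90 ± 0.22 (0.00064) in controls and -0.54 ± 0.46 (0.488) in BPA ewes. S100A4, a calcium-binding protein of fibroblasts, had -2.55 ± 0.30 in controls (0.000767) and -2.26 ± 0.33 in BPA ewes (0.00497). TWIST1, a mesenchymal transcription factor, had -1.97 ± 0.23 (0.000744) and -1.34 ± 0.34 (0.0345). ENG, a coreceptor for TGF-beta on endothelium and stroma, was called higher in visceral fat, at 0.74 ± 0.21 in controls (0.0436) and 1.19 ± 0.25 in BPA ewes (0.019). TCF21, a transcription factor of visceral mesenchyme, was the other gene called higher, with 0 counts in all 8 subcutaneous libraries, where 3 counts would be 0.467 to 0.879 CPM. In the 8 visceral libraries it had 56 to 188 counts.

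Of 11 early progenitor genes tested between depots in controls, 1 was called higher and 2 lower, against 7.17% and 6.16% of all genes. There SFRP4, a secreted Wnt antagonist, was called lower in visceral fat (2.17 ± 0.541 against 41.7 ± 22.2 CPM; log2 -4.25 ± 0.37, edgeR adjusted p = 0.000135), as was BMP7 (-1.24 ± 0.32, 0.0282), while LIMCH1 was called higher (0.67 ± 0.14, 0.0114). SFRP4 had -2.33 ± 0.75 in BPA ewes, without overlap and not called (0.0749). The list median was 0.0844 in controls and 0.56 in BPA ewes. In BPA ewes PCOLCE2 (1.04 ± 0.16, 0.00663), EFHD1 (0.66 ± 0.14, 0.0178) and ANXA3 (1.03 ± 0.29, 0.0485) were called higher and 0 lower. These were 3 of 11 tested genes, while 5.13% of all genes were called higher and 3.94% lower. CXCL14, a chemokine of preadipocytes, was called lower in visceral controls (0.102 ± 0.203 against 7.36 ± 3.08 CPM; adjusted p = 0.00149).

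In controls 1 of 4 PDGF ligands, 1 of 5 tested CD55 partners and 2 of 5 THY1 partners were called between depots. None of the tested partners of DDR2, DPP4 and CD34 was called there, and 13.3% of all genes were. In BPA ewes 2 of 4 tested DPP4 partners, 1 of 5 CD55 partners and 1 of 1 CD34 partners were called. PDGF ligands and the partners of DDR2 and THY1 had 0 called, against 9.07% of all genes. PDGFB, the main ligand of PDGFRB, was called higher in visceral controls (91.7 ± 4.66 against 55.8 ± 15.4 CPM; log2 0.72 ± 0.19, edgeR adjusted p = 0.0298), where PDGFRB was lower, and had 0.92 ± 0.33 (0.1) in BPA ewes. CXCL12, a chemokine that DPP4 cleaves, was called higher in visceral BPA fat (386 ± 174 against 125 ± 37.0 CPM; 1.62 ± 0.33, 0.0176). In BPA ewes DPP8, a relative of DPP4 inside the cell, was called lower (-0.70 ± 0.14, 0.0171). PODXL, a sialomucin of the CD34 family, had 0.85 ± 0.24 (0.0485), and CFI, a complement protease, 2.47 ± 0.62 (0.0339). In controls the complement gene C2 (-1.39 ± 0.28, 0.0105), the integrin chain ITGB3 (-0.84 ± 0.18, 0.013) and the syndecan SDC4 (-0.50 ± 0.13, 0.0297) were called lower.

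Mural and endothelial cells also express PDGFRB and CD34, respectively, and their markers were measured beside them. Summed endothelial markers were 3050 to 3450 CPM in visceral and 2050 to 3230 in subcutaneous controls, and 2780 to 3010 and 1940 to 2770 in BPA ewes. Of the 12 endothelial genes, 2 were called higher and 1 lower in visceral controls, against 7.17% and 6.16% of all genes. In BPA ewes 1 was called higher and 0 lower, against 5.13% and 3.94%. KDR, a receptor for vascular endothelial growth factor, was called higher in visceral fat of controls (487 ± 56.6 against 235 ± 32.0 CPM), and PROX1, a transcription factor of lymphatic endothelium, was called lower (10.8 ± 4.09 against 31.2 ± 12.5; log2 -1.51 ± 0.33, edgeR adjusted p = 0.0149). PECAM1 was 430 ± 52.9 in visceral and 420 ± 91.1 CPM in subcutaneous controls. RGS5, a marker of pericytes, was called higher in visceral controls (409 ± 61.4 against 163 ± 56.0 CPM; log2 1.34), and 8 of 10 mural genes had estimates above 0 in each exposure. MCAM, an adhesion molecule of vessel cells, had an estimate below 0 in both, at 883 ± 91.5 against 1140 ± 306 CPM in controls (-0.36 ± 0.19, 0.242) and 819 ± 114 against 1250 ± 257 in BPA ewes (-0.61 ± 0.20, 0.0768). Summed adipocyte markers were 22600 to 33400 CPM in visceral and 11900 to 23400 in subcutaneous controls. In BPA ewes they overlapped, at 17200 to 29200 and 15700 to 26100. Of 14 adipocyte genes, 4 were called higher in visceral controls and 0 in visceral BPA fat. Of 9 tested macrophage genes, 1 and 4 were called higher, against 7.17% and 5.13% of all genes. The part of vessel, adipocyte and macrophage markers in the depot values of the 8 genes was not tested.

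Ratios to PDGFRA within a library do not depend on how libraries are scaled. Over 7 ratios and 4 comparisons, 28 tests, 0 passed an adjusted p of 0.05 and 4 reached 0.0286, the smallest that an exact two-sided permutation test of 4 against 4 allows (Benjamini-Hochberg adjusted p = 0.2 for each). The log2 ratio of DDR2 to PDGFRA was 0.47 ± 0.26 in visceral BPA fat and 1.11 ± 0.24 in visceral controls, without overlap. In subcutaneous fat it was 1.03 ± 0.36 in BPA libraries and 1.03 ± 0.27 in controls (exact permutation p = 1). In BPA ewes the ratios of PDGFRB (1.05 ± 0.26 visceral, 2.33 ± 0.69 subcutaneous), CD34 (0.33 ± 0.38 and 1.32 ± 0.33) and DDR2 (0.47 ± 0.26 and 1.03 ± 0.36) were the other 3. The ratio of THY1 to PDGFRA was -1.55 ± 0.34 in subcutaneous BPA fat and -1.06 ± 0.19 in controls (exact permutation p = 0.0857, adjusted 0.343).

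**Figure D4:**
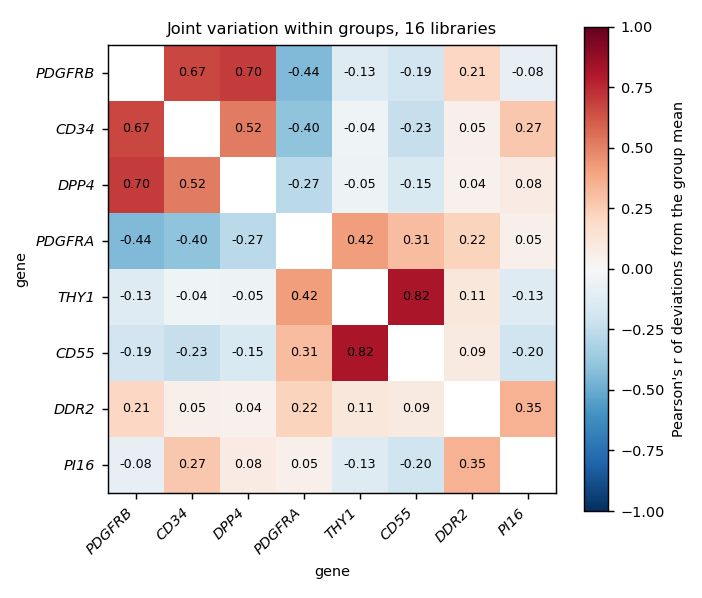
Pearson correlation of log2 CPM between each pair of the 8 genes over 16 libraries after each group mean was subtracted, on a colour scale from -1 to 1. THY1 with CD55 is the highest of the 28 pairs (0.82), followed by PDGFRB with DPP4 (0.70) and PDGFRB with CD34 (0.67).

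Within groups the 8 genes did not vary as a single block. The correlations below describe 16 libraries, which share depth and, for 5 numbers, possibly an animal, and are given without a p. Of 28 pairs, THY1 and CD55, both anchored to the membrane by a lipid, had the highest Pearson r (0.82, Spearman rho 0.82). It was 0.85 over the 8 visceral and 0.81 over the 8 subcutaneous libraries, and 0.84 without the 2 libraries farthest from the median. PDGFRB and CD34 had an r of 0.67 (rho 0.66; 0.62 visceral, 0.73 subcutaneous). PDGFRB and DPP4 had an r of 0.70 that came from subcutaneous libraries (0.82, against 0.10 in visceral ones) and was 0.49 without the 2 farthest. CD34 and DPP4 were likewise at 0.88 in subcutaneous and -0.35 in visceral libraries. PDGFRA and PDGFRB, which share ligands, were at -0.79 in subcutaneous and 0.18 in visceral libraries.

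Of all 14793 genes tested over 16 libraries, the pattern within groups most like that of PDGFRB was that of NT5E (r 0.87) and LTV1 (0.87), and for CD34 that of GPNMB (0.87) and S100A5 (0.84). THY1 was closest to LOC105606919 (0.91) and FAM149B1 (0.86), and CD55 to NCAPG (0.91) and TRIM32 (0.89). For PI16 these were S100A2 (0.89) and PITPNA (0.83), and for DPP4 ZNF385B (0.88) and CAMTA1 (0.88). DDR2 was closest to LOC114117766 (0.85) and LOC114118747 (0.81), and PDGFRA to LOC114110462 (0.76) and ITGAD (0.76). PDGFRA thus had the lowest such values of the 8. These genes are the highest of 14793 by choice, and values of this size are given as a ranking.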

How the data were processed

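RNA sequencing measured gene expression in 16 libraries of sheep fat. A low-input SMARTer kit followed ribosomal depletion, per the labels' protocols. The submitters' processing notes name STAR 2.6.0c, featureCounts of Subread 1.6.1, FastQC 0.11.5 and MultiQC 0.9. The deposited values are counts per gene for 28524 genes. The table is called normalized, but 0 values are other than whole numbers and totals differ between libraries, so they were treated as raw counts. The strand setting, genome build and annotation were not given in the sources used here. Chromosome numbers were assigned through symbols shared with the ARS-UI_Ramb_v3.0 annotation (22250 matched), and coordinates are those deposited.

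Genes were filtered (filterByExpr, a count of 10, 15 in total), TMM-scaled and tested two-sided in edgeR 4.0.16 (quasi-likelihood; R 4.3.3) with Benjamini-Hochberg adjustment over all genes and a threshold of 0.05. Each comparison was fitted on its own 8 libraries, the interaction on 16. Printed CPM use TMM factors of all 16. TPM came from counts and the deposited gene length. Ratios and correlations used log2 CPM with a prior count of 2. Lists for 17 other gene groups are described by counts, medians or summed levels, and not every list is given for every comparison. Some genes of these lists were not analysed here. Named genes are the 8 members, up to 4 called genes of each list with the smallest p, the tissue markers, and the 2 genes most like each member. List genes with no call, and the genes singled out for the size of their change or of a list's range, were named after their values were seen. The members and lists were chosen with earlier results of these data known. Scripts were tested on simulated data.

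Title numbers were checked by correlating each library's deviations from its group mean across genes. Control numbers 902, 924 and 928 had correlations of 0.287, 0.40 and 0.332 between depots, each the best match, and were taken as pairs. The main edgeR tests did not use this pairing, and the title number entered only as a block in limma voom and an edgeR alternative. BPA number 918 had 0.167, also its best match, and 977 had 0.031, below the 0.110 of visceral 977 with subcutaneous 941. These BPA numbers are described only as sharing a number. Alternatives were DESeq2 1.42.0, its size factors, other filters, limma 3.58.1 voom, blocks, omitted libraries, a threshold of 0.10, a prior count of 0.5, another denominator for ratios, and RPKM on TMM-scaled totals in place of TPM.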

Additional observations from a re-analysis of the deposited data

Results flagged for a closer look

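Of 32 sets of 4 libraries, each gene in each group, 2 had a library far from the other 3, and chance alone marks about 1 set in 20. PDGFRA was 101 CPM in visceral control 902, while the other visceral controls were at 157, 157 and 165 (gap over range 0.862). The subcutaneous library of the same number had the highest PDGFRA of all, 228 CPM. THY1 was 66.5 CPM in subcutaneous control 928, while the other subcutaneous controls were at 90.2, 91.0 and 93.7 (0.873). Without that control, the BPA difference of THY1 was -1.13 on the log2 scale (edgeR adjusted p = 0.0455).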

How the results depend on the processing

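The BPA count in subcutaneous fat, 96 genes, was 464 with DESeq2 (261 higher, 203 lower), 173 with no filter, 54 with 50 counts required in 4 libraries, 1 with genes under 200 bases left out, 1 with limma voom, 46 in an edgeR fit of 16 libraries (29 higher, 17 lower), 0 without controls 902 and 924 (at an unadjusted p under 0.05 the main test had 1926), 216 at a threshold of 0.10 and 32 to 128 with each library left out. Members called there, 1 in the main test, were 3 with DESeq2, 0 with the stricter filter, without genes under 200 bases, with limma voom and without controls 902 and 924, and 0 to 1 with each library left out. In visceral fat DESeq2 called 5 genes and 1 member against 0, and 14 genes against 0 for the difference of the BPA effect between depots. Leaving out each library gave 0 for both. The depot count was 1928 in controls, 1138 without 902 and 924, 3062 at 0.10 and 1043 to 1755 with each library left out (members 1 to 2). In BPA ewes it was 1250, and 2207 with DESeq2, 1971 with limma voom, 2408 in edgeR on 16 libraries, 2312 at 0.10 and 369 to 2206 with each library left out (members 0 to 2). The averaged BPA effect called 0 genes with limma voom, with or without the block, and 140 genes and 3 members with edgeR without a block. Ratio tests could hardly pass adjustment in this design, so their 0 calls say nothing of stability. Of 28 ratios, 4 had an exact permutation p under 0.05, as did 6 of 24 with the other denominator. With a library of the compared groups left out, the exact permutation test cannot give a p under 0.05. The counts of 0 with any visceral BPA library left out and 1 with any subcutaneous one were therefore fixed by group size. The per-length order was the same by RPKM. Of 792 alternative values of single members, 738 kept direction and side of the threshold, 22 lost a call, 10 gained one and 22 changed sign. No value that changed sign was called. With each library left out, DPP4 under BPA in subcutaneous fat ranged from -0.66 to 0.13 on the log2 scale and CD34 there from -0.20 to 0.04. DPP4 between depots ranged from -0.07 to 0.46 in controls and from -0.72 to 0.04 in BPA ewes. The difference of the BPA effect between depots ranged from -0.12 to 0.11 for CD34, from -0.03 to 0.74 for PI16 and from -0.51 to 0.03 for PDGFRB. DPP4 between depots was at 0.35 with a fixed replicate block in BPA ewes and at -0.40 in controls without 902 and 924. Without those subcutaneous controls, the difference of the BPA effect on CD34 between depots was 0.23. The causes of these changes were not tested.

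With the title number as a replicate block in limma voom (correlation 0.235), the BPA comparison in subcutaneous fat called 1 gene and 0 members, with THY1 at an adjusted p of 0.0904, and the depot comparison in BPA ewes called 2300 genes. With the number as a fixed block in edgeR, 1 member remained called between depots in BPA ewes, CD34, and PDGFRB was at -0.67 (adjusted p = 0.0767). The blocks changed no other member's call.

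Depth limits DPP4, CD55 and PI16 most, with 17, 38 and 54 counts in their lowest libraries.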
